A study of Mus musculus with 12 samples.

Results

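Thermogenic genes of brown and beige adipocytes were followed in visceral white adipose tissue of mice. The 10 genes were Ucp1, Cidea, Cox8b, Cox7a1, Dio2, Elovl3, Ppargc1a, Prdm16, Ebf2 and Pdk4, taken by symbol from the 50559 gene rows counted in each library. The mice were FVB/N and 8 to 10 weeks old, and 4 groups of 3 libraries crossed genotype with diet. Wild-type mice carried the alphaMHC tTA driver alone, in which the alpha-myosin heavy chain promoter drives a tetracycline transactivator in heart muscle, and transgenic mice carried alphaMHC tTA x alphaMHC TGFb, so that the TGF-b1 transgene was expressed in the heart and not in fat by design. The driver was therefore shared by all 4 groups. Control chow had 17% of its energy as fat and 3.1 kcal/g, and the high-fat diet had 60% and 5.21 kcal/g. High-fat feeding lasted 2 or 6 weeks, without a label that ties a library to either time. Nothing states that the libraries of a group come from different mice, so p-values measure only how far these libraries spread, which may be technical. Libraries are named here by group and replicate number, and the numbers do not pair them.

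Brown adipocytes burn fuel to make heat, and beige adipocytes are heat-making cells that arise within white fat depots. In both, noradrenaline acts through beta-adrenergic receptors and cyclic AMP to raise transcription of Ucp1, whose protein lets protons leak across the inner mitochondrial membrane so that respiration releases heat instead of making ATP. Visceral white fat of mice normally holds few such cells compared with subcutaneous fat. In bulk RNA, fewer thermogenic cells and less thermogenic RNA per cell cannot be told apart, which applies to all values below.

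Because Ucp1, Dio2 and Ppargc1a are textbook targets of cyclic AMP signalling and varied together with Cox8b across the libraries, their proximal promoters are shown. The table of promoters from RefSeq, build GRCm38.p6, gave promoters for 7 of the 10 members, without Elovl3 and Ebf2, and the promoter of Cidea was not searched. Each line gives the 250 bases before the annotated start, 5′ to 3′ on the gene's strand, with matches to the searched motifs in capitals. The stretches are chr8:83290098-83290347 on the plus strand, chr7:140900447-140900696 on the minus strand, chr12:90739039-90739288 on the minus strand and chr5:51567726-51567975 on the minus strand, where the start used for Ppargc1a lies inside the span of the gene.
Ucp1: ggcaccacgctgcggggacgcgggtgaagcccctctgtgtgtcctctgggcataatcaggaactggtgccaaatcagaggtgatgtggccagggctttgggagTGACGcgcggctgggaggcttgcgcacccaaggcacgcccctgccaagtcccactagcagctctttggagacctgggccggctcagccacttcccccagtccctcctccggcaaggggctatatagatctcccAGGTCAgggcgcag
Cox8b: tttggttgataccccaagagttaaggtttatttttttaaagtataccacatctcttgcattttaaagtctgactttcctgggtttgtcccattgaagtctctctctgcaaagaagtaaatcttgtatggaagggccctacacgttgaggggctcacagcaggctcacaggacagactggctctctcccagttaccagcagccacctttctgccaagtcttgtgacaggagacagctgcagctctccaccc
Dio2: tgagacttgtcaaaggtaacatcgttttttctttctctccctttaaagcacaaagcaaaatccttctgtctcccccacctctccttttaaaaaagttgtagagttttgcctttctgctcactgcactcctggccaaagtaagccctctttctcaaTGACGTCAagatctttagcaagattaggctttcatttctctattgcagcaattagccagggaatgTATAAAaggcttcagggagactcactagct
Ppargc1a: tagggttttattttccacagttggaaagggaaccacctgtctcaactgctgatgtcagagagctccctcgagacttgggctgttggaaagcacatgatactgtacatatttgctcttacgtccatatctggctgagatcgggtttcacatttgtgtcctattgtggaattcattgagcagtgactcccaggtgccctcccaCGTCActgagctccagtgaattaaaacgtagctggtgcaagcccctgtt
The motifs were the cyclic AMP response element TGACGTCA, its half-site TGACG, which also lies inside the full element, the nuclear receptor half-site AGGTCA, the estrogen-related receptor element TNAAGGTCA, which contains the former, and the TATA box TATAAA, each searched on both strands. Dio2 held the full cyclic AMP response element at -95 to -88 from the start and a TATA box at -30 to -25. Ucp1 held the half-site TGACG at -147 to -143 and AGGTCA at -14 to -9. Ppargc1a held the half-site on the opposite strand at -49 to -45, and no searched motif was in the Cox8b stretch. The searched stretches of Cox7a1, Pdk4 and Prdm16, which are not printed, held none either. Of the 7 member promoters 3 thus held TGACG, 1 TGACGTCA, 1 AGGTCA, 1 TATAAA and 0 TNAAGGTCA. Among 32851 mouse promoters of the same length, 1.55% held TGACGTCA, 17.8% TGACG, 14% AGGTCA, 1.14% TNAAGGTCA and 12.4% TATAAA. These matches describe letters only.

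The libraries held 20.1 to 21.3 M gene counts, and 16550 genes, including 9 of the 10 members, passed the filter on low counts. The tissue carried white adipocyte RNA throughout, with the 10 white markers summing to 28173 to 41738 CPM, that is, reads scaled to the total of the gene rows. Of the brown lineage markers, Zic1 had 1 count in all libraries together and Lhx8 had 7, with no count in 11 and 8 libraries respectively, where 3 counts would correspond to 0.141 to 0.149 CPM. The other brown lineage markers were detected in all libraries, Fbxo31 at 35.2 to 99.0 CPM, Epsti1 at 3.26 to 7.82 CPM and Eva1a at 1.44 to 2.58 CPM. Of the beige markers, Klhl13 lay at 26.8 to 52.9 CPM, Car4 at 14.9 to 33.3, Tmem26 at 0.386 to 1.29, Cited1 at 0.241 to 7.26 and Cd40 at 0.241 to 1.71 CPM, while Tbx1, at 0 to 1.88 CPM, and Tnfrsf9, at 0 to 0.191 CPM, were at 0 in some libraries. Some libraries stood apart in markers of other tissues. The 15 skeletal muscle markers summed to 757 CPM in wild-type high-fat library 3 and 1178 CPM in transgenic control-diet library 3, against 44.8 to 119 CPM in the other 10. The abundant Acta1 and Myl1 were detected in all 12, and Ckm, muscle creatine kinase, was at 0 in 5. The mean log2(CPM + 1) of the muscle markers was 4.615 and 5.45 in those 2 libraries. It was 2.00 in transgenic high-fat library 3 and 0.929 to 1.18 in the rest. The 8 epithelial markers summed to 94.4 CPM in wild-type control-diet library 1 and 378 CPM in transgenic control-diet library 2, against 12.3 to 44.2 CPM elsewhere. Wild-type high-fat library 2 had the highest mean log2(CPM + 1) of the 8 liver markers, 4.81 against 2.11 to 2.81 elsewhere.

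Ucp1 (chr8:83290348-83298456), the uncoupling protein itself, ranged from almost no reads to 91.3 CPM within a single group. It measured 91.3, 26.3 and 0.0949 CPM in the wild-type control-diet libraries 1 to 3 and 0.384, 0.0941 and 52.3 CPM in the wild-type high-fat ones. In transgenic tissue it measured 27.9, 84.8 and 1.59 CPM on control diet and 225, 37.0 and 19.6 CPM on high-fat diet. All groups overlapped. Each held a library of at least 52.3 CPM, and only in transgenic high-fat tissue was no library under 2 CPM. In reads, the highest library had 4744 and the lowest 2, a ratio of 2396 with a 95% counting interval of 663 to 19790. The group means were 94.0 ± 114 (SD, n = 3) CPM in transgenic high-fat, 39.2 ± 47.0 in wild-type control, 38.1 ± 42.5 in transgenic control and 17.6 ± 30.1 CPM in wild-type high-fat tissue, so neighbours in this order differed by less than the larger of their SDs.

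Cidea (chr18:67343564-67367794) encodes a lipid droplet protein abundant in brown and beige adipocytes. It measured 53.1, 74.8 and 1.95 CPM in wild-type control tissue, 5.09, 1.84 and 44.7 in wild-type high-fat, 70.3, 54.4 and 4.69 in transgenic control and 241, 24.7 and 36.5 CPM in transgenic high-fat tissue. The libraries with almost no Ucp1 were those with the least Cidea, and no group was separated from another. The highest library exceeded the lowest 131-fold. As for Ucp1, the group mean was highest in transgenic high-fat tissue, at 101 ± 122 CPM, and lowest in wild-type high-fat tissue, at 17.2 ± 23.9 CPM (SD, n = 3).

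**Figure D1:**
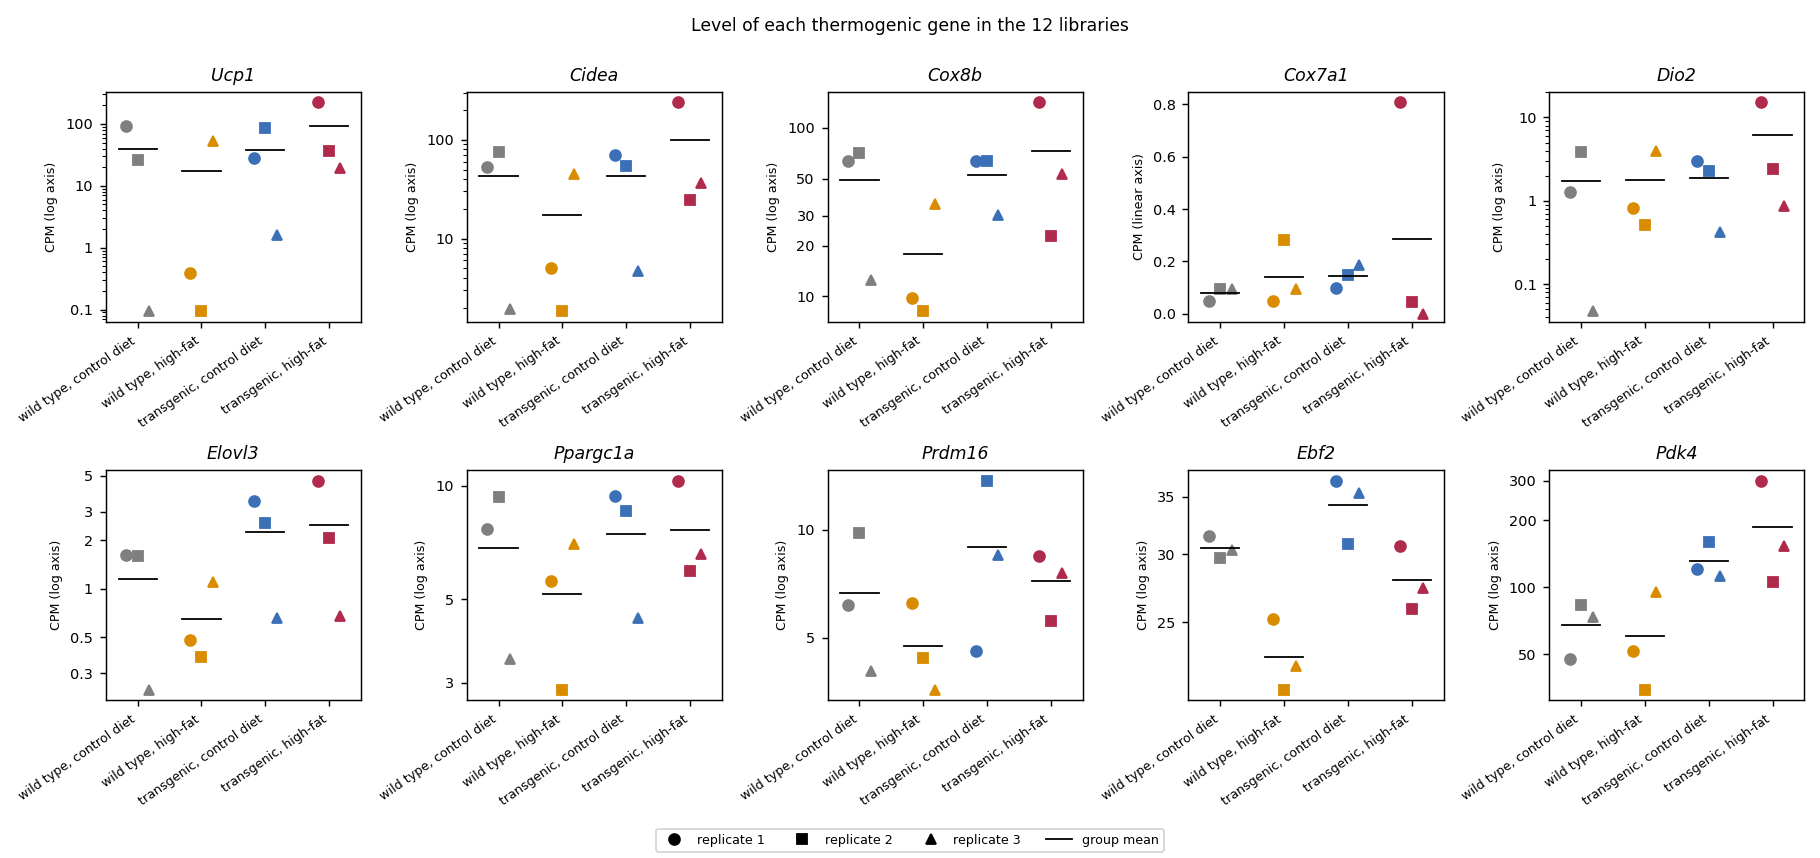
Level of each of the 10 genes, in CPM, in the 12 libraries; symbols mark replicate numbers, bars the group means, and axes are logarithmic except for Cox7a1. Libraries of a single group spread over orders of magnitude for Ucp1, from 0.0949 to 91.3 CPM in wild-type control tissue, whereas Ebf2 stays between 20.8 and 36.6 CPM and Pdk4 is higher in all 6 transgenic libraries.

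Of the cytochrome c oxidase subunits, Cox8b (chr7:140898942-140900446) is the isoform found in heart, skeletal muscle and brown fat. It measured 63.8, 70.5 and 12.5 CPM in wild-type control, 9.79, 8.14 and 35.3 in wild-type high-fat, 64.0, 63.4 and 30.4 in transgenic control and 142, 22.7 and 53.1 CPM in transgenic high-fat tissue. Its 3 lowest libraries were wild-type, yet all groups overlapped. Cox8b in the muscle-rich libraries was mid-range, at 35.3 and 30.4 CPM, and the part of muscle RNA in it was not tested. The group means ran from 17.7 ± 15.2 CPM in wild-type high-fat to 72.7 ± 62.2 CPM in transgenic high-fat tissue (SD, n = 3).

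Cox7a1 (chr7:30184171-30186030), the heart and muscle form of another oxidase subunit and a commonly used brown fat marker, was near the limit of detection. It had 0 to 6 reads in 11 libraries and 17 reads, or 0.808 CPM, in transgenic high-fat library 1, which also led for Ucp1. The library with no read allows up to 0.145 CPM. The 3 transgenic control libraries, at 0.0988 to 0.188 CPM or 2 to 4 reads, all lay above the 3 wild-type control ones, at 0.0478 to 0.0964 CPM or 1 to 2 reads, a gap of less than 1 read. Both muscle-rich libraries had only 2 and 4 Cox7a1 reads, although Cox6a2, a muscle form of a further oxidase subunit named here after its values were seen, had 169 and 283 reads in them. Cox7a1 failed the filter on low counts, and an exact two-sided permutation test of its CPM gave p = 0.1 for transgenic against wild type on control diet, the smallest p that 3 against 3 allows, with 0.6 to 1 in the other comparisons of 3 against 3. Over 6 against 6 libraries the exact permutation p was 0.665 for diet and 0.576 for genotype.

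Dio2 (chr12:90724552-90739038) makes the deiodinase that activates thyroid hormone inside brown adipocytes. It measured 1.29, 3.90 and 0.0475 CPM in wild-type control, 0.816, 0.518 and 3.96 in wild-type high-fat, 2.96, 2.29 and 0.422 in transgenic control and 15.3, 2.39 and 0.868 CPM in transgenic high-fat tissue. Transgenic high-fat library 1 stood above all others, and the remaining libraries overlapped between groups. The lowest value rests on 1 read and the highest on 321, a ratio of 321 with a 95% counting interval of 57.3 to 12733.

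Elovl3 (chr19:46131897-46135694), a fatty acid elongase induced in activated brown fat, measured 1.63, 1.59 and 0.237 CPM in wild-type control and 0.480, 0.376 and 1.10 CPM in wild-type high-fat tissue. Its transgenic values were 3.51, 2.54 and 0.657 CPM on control diet and 4.66, 2.06 and 0.675 CPM on high-fat diet. The 4 highest libraries were all transgenic, but the lowest library of each transgenic group lay within the wild-type range. For Cidea, Cox8b, Dio2 and Elovl3 alike, neighbours in the order of group means differed by less than the larger of their SDs.

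The regulators varied less than the effectors. Ppargc1a (chr5:51454249-52115853), the coactivator of mitochondrial biogenesis and of Ucp1 transcription, ranged from 2.87 CPM in wild-type high-fat library 2 to 10.3 CPM in transgenic high-fat library 1, with group means between 5.15 ± 2.10 and 7.62 ± 2.35 CPM (SD, n = 3). Prdm16 (chr4:154316122-154637360), the coregulator that promotes brown and beige identity, ranged from 3.58 to 13.7 CPM, its highest library being transgenic control-diet library 2. All groups overlapped for both genes.

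Ebf2 (chr14:67233292-67430952), a transcription factor that marks brown and beige precursors and opens thermogenic gene chromatin, was the steadiest of the 9 tested members and the one called for diet. It measured 31.5, 29.7 and 30.4 CPM in wild-type control tissue and 25.2, 20.8 and 22.2 CPM in wild-type high-fat tissue. In transgenic tissue the values were 36.6, 30.8 and 35.4 CPM on control diet and 30.7, 25.9 and 27.4 CPM on high-fat diet. High-fat libraries were below control libraries within each genotype without overlap, although the transgenic margin, 30.8 against 30.7 CPM, was narrow. In order, the group means were 34.3 ± 3.02 CPM in transgenic control, 30.5 ± 0.895 in wild-type control, 28.0 ± 2.47 in transgenic high-fat and 22.8 ± 2.23 CPM in wild-type high-fat tissue (SD, n = 3).

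Pdk4 (chr6:5483351-5496278) encodes a kinase that shuts off pyruvate dehydrogenase and so shifts cells from glucose to fatty acid oxidation. It measured 47.4, 83.0 and 73.4 CPM in wild-type control, 51.5, 34.6 and 95.6 in wild-type high-fat, 121, 159.5 and 112 in transgenic control and 300.3, 105 and 153 CPM in transgenic high-fat tissue. All 6 transgenic libraries exceeded all 6 wild-type libraries, the nearest pair being 105 and 95.6 CPM. Among the genes tested, 0.145% were higher in the transgenic libraries without overlap, and 0.532% did not overlap in either direction.

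The low libraries were largely shared between genes. The 4 libraries lowest in Ucp1 were wild-type control library 3, wild-type high-fat libraries 1 and 2 and transgenic control library 3, and the same 4 were lowest for Cidea, Dio2, Elovl3 and Ppargc1a. For Cox8b and Pdk4, 3 of those 4 were among the 4 lowest, and for Prdm16 and Ebf2, 2 of 4. At the other end, transgenic high-fat library 1 was the highest for 7 of the 9 tested members, the exceptions being Prdm16 and Ebf2. These libraries come from 3 of the 4 groups at the low end. Of the 4 low libraries, 1 was muscle-rich and 1 had the high liver score, and the other muscle-rich library, wild-type high-fat library 3, was the one with Ucp1 at 52.3 CPM in its group. The part of these markers in the low and high libraries was not tested.

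**Figure D2:**
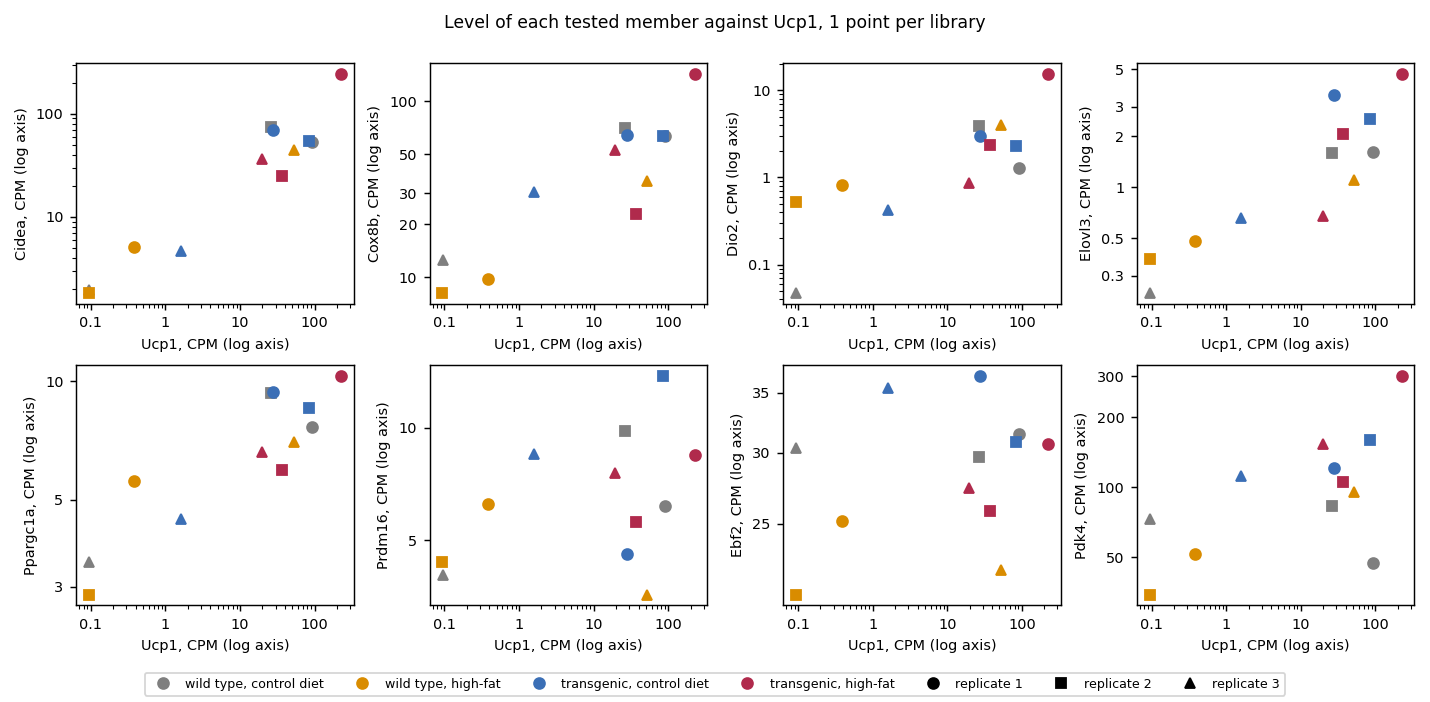
Level of each of the other 8 tested genes against Ucp1, both in CPM on logarithmic axes, 1 point per library, with colour for group and symbol for replicate number. Cidea, Dio2, Elovl3 and Ppargc1a are lowest in the 4 libraries with the least Ucp1, whereas Ebf2 is not ordered by Ucp1.

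**Figure D3:**
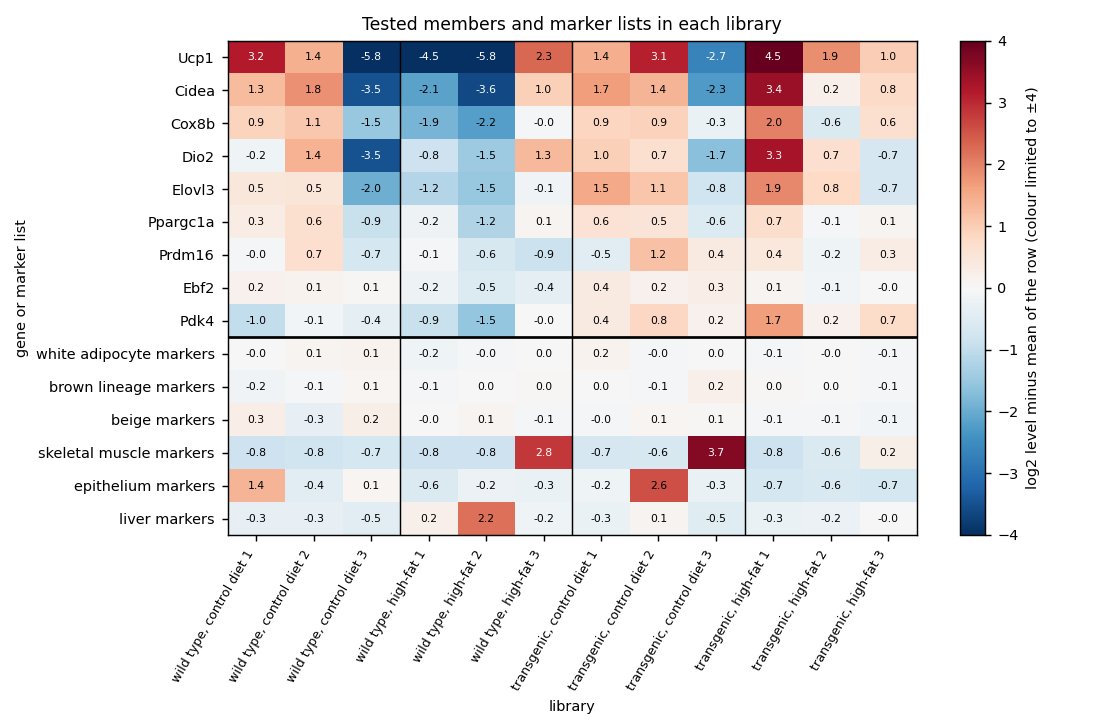
Log2 level of the 9 tested genes and of 6 marker lists in each library, each row relative to its own mean, with colour limited to 4 log2 units. The rows of Ucp1, Cidea and Dio2 are lowest in the same 4 libraries, while the white adipocyte and brown lineage rows are nearly flat and the muscle row is high in 2 libraries.

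Few genes varied as much within groups as Ucp1, Cidea and Dio2. The SD of log2 CPM within groups was 3.66 for Ucp1, against a median of 0.22 over all genes tested, and the single tested gene with a larger SD was Myh2, a muscle myosin. For Cidea the SD was 2.34, with 36 genes larger, and for Dio2 1.90, with 66 larger. Elovl3 and Cox8b followed at 1.19 and 1.18, with 206 and 209 genes larger. Then came Ppargc1a at 0.64, Pdk4 at 0.60 and Prdm16 at 0.59, with 1334, 1598 and 1691 genes larger. Ebf2 was the exception among the members at 0.12, smaller than in 14366 of the genes tested, a rank over genes of all levels and not among genes of similar level. The 4 groups therefore left 72.5% of the variance of Ucp1 and 83.7% of that of Dio2 within groups, but 33.9% for Pdk4 and 13.5% for Ebf2, where the median gene had 59.3%.

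**Figure D4:**
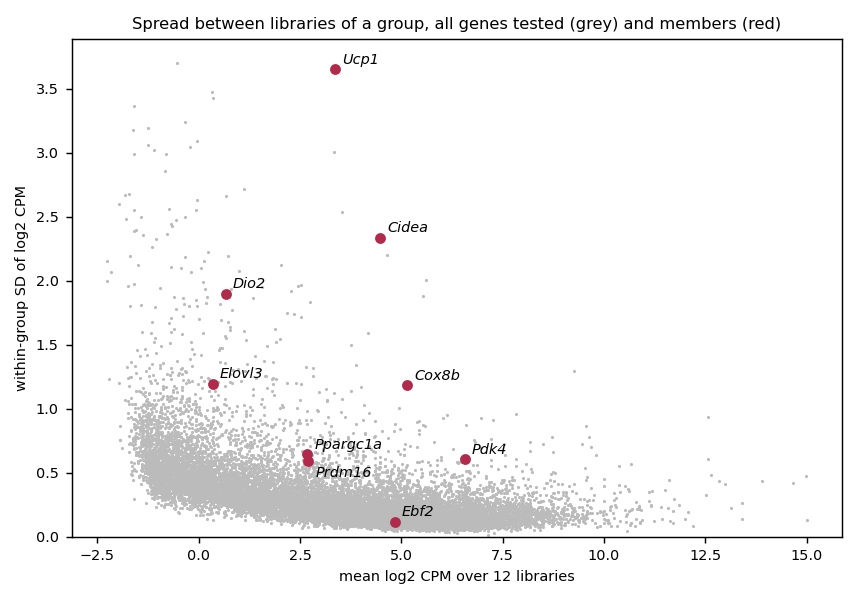
SD of log2 CPM between libraries of the same group against mean log2 CPM over the 12 libraries, for all 16550 genes tested (grey) and the 9 members tested (red). Ucp1, at 3.66, and Cidea, at 2.34, lie far above genes of similar level, and Ebf2, at 0.12, lies low in the cloud.

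In wild-type mice on high-fat diet Ebf2 was lower, and no other member passed the test. Ebf2 fell by 0.49 on the log2 scale (SE 0.11, 95% interval -0.72 to -0.26, edgeR adjusted p = 0.0481), with all 3 high-fat libraries below all 3 control libraries. Of the 9 members 1 was called, and of all genes tested 1.14% were called, 0.453% as lower. At an unadjusted p below 0.05 stood 1 member and 18.1% of genes. Libraries did not overlap for 1 tested member and for 24.8% of genes, 7.95% being lower. The other 8 also had negative values, as 52.1% of genes did, from -1.55 for Cox8b (SE 0.76, adjusted p = 0.31) to -0.08 for Dio2 (SE 1.21, adjusted p = 0.981), and Ucp1 had -1.23 with a 95% interval of -4.93 to 2.47. The median over the tested members was -0.58, beside -0.01 for all genes. The call of Ebf2 was marginal: leaving out any 1 of the 12 libraries gave -0.59 to -0.42 with adjusted p of 0.054 to 0.189 by edgeR, and without both muscle-rich libraries it was -0.48 (adjusted p = 0.115). In the authors' deposited table the Ebf2 log2 fold change for this comparison was -0.49 with an adjusted p of 0.0181, where 5.98% of genes were called.

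In transgenic mice no member passed the test for diet. With edgeR 0 of 9 members were called against 8.73% of genes, DESeq2 and limma-voom also called 0, and 1 member, Ebf2, had an unadjusted p below 0.05, as did 25.8% of genes. Its value was -0.27 (SE 0.11, adjusted p = 0.132), and it was the 1 tested member without overlap, as were 27% of genes. Dio2 had 1.70 (SE 1.18), Ucp1 1.27 (SE 1.67) and Cidea 1.21 (SE 1.28), with 95% intervals that all include 0. In the authors' deposited DESeq2 table for this comparison, Ebf2 had -0.26 with an adjusted p of 0.306, where 9.88% of genes were called. Averaged over both genotypes, Ebf2 fell by 0.38 with high-fat diet (SE 0.075, 95% interval -0.54 to -0.22, edgeR adjusted p = 0.0059), 1 called member of 9 beside 17.4% of genes, 7.98% of genes being lower, and the 1 member with an unadjusted p below 0.05 beside 32.4% of genes. No tested member was without overlap over 6 against 6 libraries, against 6.29% of genes. This averaged fall stayed called in all 21 alternative settings, from -0.43 to -0.34. Some markers of other cell types were also called with diet, by edgeR averaged over genotypes. Over all genes 17.4% were called, and the median was -0.02. Called lower were 4 of 6 mesothelial markers (median of the list -1.06), 5 of 8 epithelial (median -1.88) and 1 of 6 adipocyte progenitor markers (median -0.32). Of 6 endothelial markers 3 were called higher (median 0.24), and of 6 macrophage markers 2 higher (median 0.38). Of 7 liver markers 4 were higher and 1 lower (median 3.06). Single libraries stood out in the epithelial and liver lists. The epithelial sum was highest in transgenic control-diet library 2 (378 CPM) and wild-type control-diet library 1 (94.4 CPM). The mean log2(CPM + 1) of the liver markers was highest in wild-type high-fat library 2 (4.81). How far these libraries set the medians was not tested. Of 10 white adipocyte markers 1 was higher and 2 lower (median -0.17). Of 6 sebaceous gland markers 1 was lower (median 0.24), and of 3 cardiac muscle markers 1 was higher (median -0.68). Of 12 skeletal muscle markers 0 were called (median 0.62). The summed progenitor markers lay at 421 to 537 CPM in wild-type control, 369 to 425 in wild-type high-fat, 407 to 433 in transgenic control and 343 to 384 CPM in transgenic high-fat tissue. The summed mesothelial markers lay at 482 to 842, 328 to 437, 580 to 603 and 108 to 320 CPM in the same order. The part of these cell types in the Ebf2 result was not tested.

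The transgene comparisons ask whether cardiac TGF-b1 alters these genes in fat, and no member passed the edgeR test in them. On control diet 0 of 9 were called against 0.0363% of genes, also 0 by DESeq2 and limma-voom, with 1 member, Pdk4, and 11% of genes at an unadjusted p below 0.05. Pdk4 had a log2 difference of 0.94 (SE 0.41, adjusted p = 0.423) and was the 1 tested member without overlap, beside 13.1% of genes. In the authors' deposited table, which rests on the 6 control-diet libraries, the same gene had 0.94 with an adjusted p of 0.00975, where 0.942% of genes were called. Ucp1 and Cidea had -0.02 each, with 95% intervals of -3.62 to 3.58 and -2.80 to 2.75.

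On high-fat diet all 9 tested members had higher fitted levels in transgenic tissue, and none passed the test. DESeq2 gave an adjusted p only to Pdk4, which it did not call, and so could not call the others. Limma-voom called 0, and edgeR called 0 against 0% of genes. The values ran from 0.38 for Ebf2 to 2.61 for Cidea, with a median of 1.87 beside 0.00 for all genes, and 50.2% of all genes had positive values. At an unadjusted p below 0.05 stood 4 members, as did 6.73% of genes: Pdk4 with 1.69 (SE 0.41, adjusted p = 0.712), Ebf2 with 0.38 (SE 0.11, adjusted p = 0.712), Cox8b with 2.11 (SE 0.77, adjusted p = 0.714) and Elovl3 with 1.98 (SE 0.83, adjusted p = 0.714). Ebf2 and Pdk4 were the 2 tested members without overlap, beside 16.6% of genes. For Ucp1 the difference was 2.48 with a 95% interval of -1.32 to 6.27, and single libraries set its size. It was 0.77 without transgenic high-fat library 1 and 8.67 without wild-type high-fat library 3, the muscle-rich one, with adjusted p of 0.962 and 0.814. Dio2 went from 1.87 to -0.03 and Cidea from 2.61 to 0.91 without transgenic high-fat library 1, while Pdk4 kept 1.17. In the authors' deposited DESeq2 table for this comparison, Pdk4 had 1.69 with an adjusted p of 0.284, where 0.554% of genes were called.

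Averaged over diets, Pdk4 had a log2 value 1.315 higher in transgenic tissue (SE 0.29, 95% interval 0.69 to 1.95), with edgeR's adjusted p at 0.17 and DESeq2's at 0.02. All 9 tested members and 49.3% of genes had positive values, edgeR called 0 of them and 0% of all genes, limma-voom called 0, DESeq2 called 1, and 3 members (Pdk4, Ebf2 and Elovl3) had an unadjusted p below 0.05 beside 12.3% of genes. Pdk4 had 1.05 to 1.57 when single libraries were left out and 1.63 without the muscle-rich libraries. The difference between the diet responses of the genotypes was positive in all 9 tested members and 51.3% of genes, from 0.23 for Ebf2 to 2.63 for Cidea. By edgeR, DESeq2 and limma-voom none was called, by edgeR no gene of the whole table was (0%), and no member had an unadjusted p below 0.05, beside 5.61% of genes, so a different diet response in the genotypes was not detectable with these libraries. All these comparisons share libraries with one another and are not independent.

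**Figure D5:**
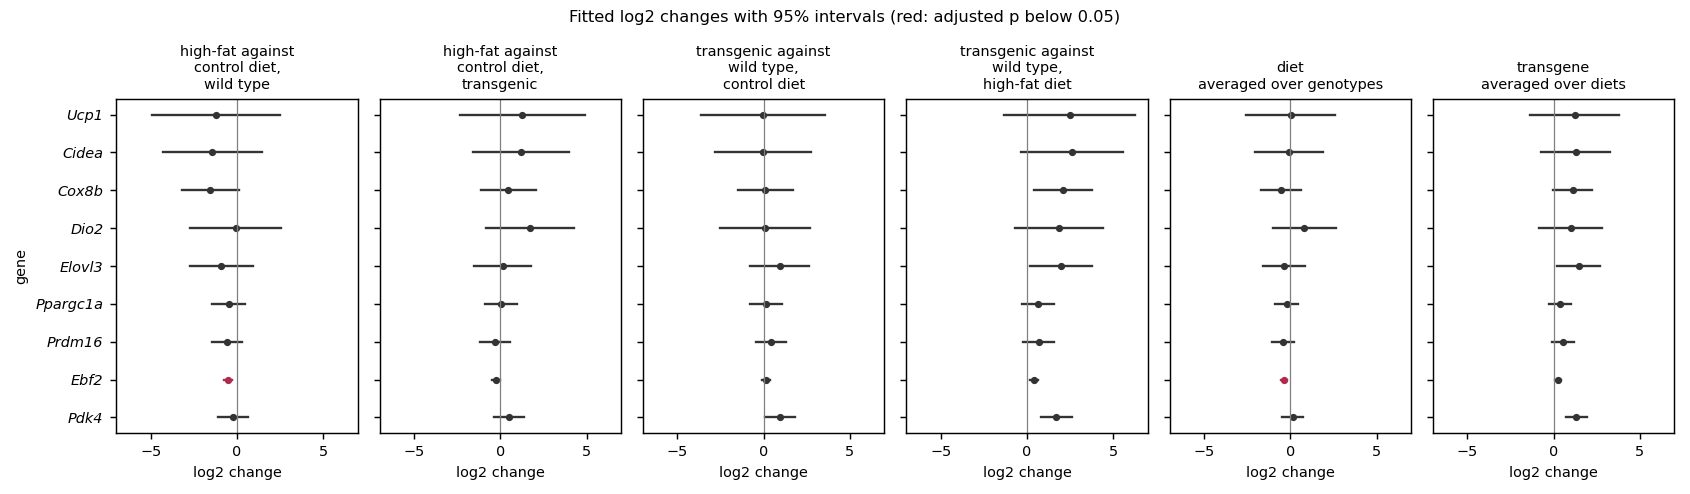
Fitted log2 change of the 9 tested genes (points) with 95% intervals (bars) in 6 comparisons, red where the edgeR adjusted p was below 0.05. Ebf2 is red at -0.49 for diet in wild-type tissue and at -0.38 for diet averaged over genotypes, its bars being narrower than the points, and the bars of Ucp1 span several log2 units.

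Other genes of the thermogenic programme are given beside the 17.4% of all genes called with diet averaged over genotypes. Of 19 other tested effectors and brown-fat-enriched genes, 1 rose and 0 fell with diet averaged over genotypes, by edgeR. That gene was S100b, which encodes a calcium-binding protein that adipocytes release and that supports sympathetic innervation, at 1.20 (SE 0.21, adjusted p = 0.00316). Within transgenic tissue it rose by 2.32 (adjusted p = 0.00194), from 3.04 ± 0.911 to 14.9 ± 5.45 CPM (SD, n = 3). Within wild-type tissue its value was 0.07 (adjusted p = 0.922), with 8.34 ± 3.17 CPM on control and 9.15 ± 1.10 CPM on high-fat diet (SD, n = 3), and the difference between the genotypes was 2.24 (adjusted p = 0.557). Also within transgenic tissue, Pm20d1, an enzyme that makes N-acyl amino acids, was the second of 2 called effectors at 0.49 (adjusted p = 0.0483). Otop1 and Fabp3, in the same list, spread from 0.659 to 33.6 and from 0.894 to 110 CPM across the libraries and were not called. Of 28 coregulators 0 rose and 2 fell: Irf4, an adipocyte factor that partners with Ppargc1a, by 0.58 (adjusted p = 0.00997), and Thra, a thyroid hormone receptor, by 0.29 (adjusted p = 0.0199). Of 21 signals and receptors 1 rose and 3 fell. Npr3, the natriuretic peptide clearance receptor, rose by 0.93 (SE 0.090, adjusted p = 0.000196). On control diet Npr3 was also lower in transgenic than in wild-type tissue, at -0.93 (adjusted p = 0.0315), with 578 ± 56.0 against 1094 ± 45.8 CPM (SD, n = 3), and it was 1 of the 6 genes of the whole table that edgeR called there. Il33, a cytokine linked to beige fat, fell by 0.86 (adjusted p = 0.0119), and Klb, the FGF21 coreceptor, fell by 0.55 (adjusted p = 0.03). Adrb3, the beta-3 adrenergic receptor, which was named after its values were seen, was abundant at 379 to 903 CPM, with a value of -0.31 (adjusted p = 0.237).

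Among fuel and respiration genes some rose and others fell with diet averaged over genotypes. Of 19 beta-oxidation genes, Cpt1a, the entry enzyme, rose by 0.49 (adjusted p = 0.0169) and Echs1, a hydratase of the pathway, fell by 0.40 (adjusted p = 0.0347). Of 13 cytochrome c oxidase subunits 1 rose and 2 fell: Cox4i2, an isoform linked to low oxygen, by 0.61 upward, and Cox8a and Cox7a2, the widely expressed counterparts of Cox8b and Cox7a1, fell by 0.50 and 0.51. Of 21 other respiratory chain and biogenesis genes 0 rose and 3 fell, beside 17.4% of all genes called in either direction. Sdha, of complex II, fell by 0.42 (adjusted p = 0.0249) and Uqcrc2, of complex III, fell by 0.45 (adjusted p = 0.0463). Among 11 genes of the creatine and calcium cycles, which can make heat without Ucp1, 3 rose and 1 fell. Gamt and Gatm, both of creatine synthesis, rose by 1.06 (adjusted p = 0.00114) and 0.72 (adjusted p = 0.0059), and Ckmt1, a mitochondrial creatine kinase, fell by 2.67 (adjusted p = 0.0125) at a level of 0.141 to 6.17 CPM and with 2.57 ± 3.12 CPM (SD, n = 3) in transgenic control tissue. Of 12 fasting and PPAR-alpha target genes 2 rose and 1 fell. Angptl4, a secreted inhibitor of lipoprotein lipase, rose by 0.43 (adjusted p = 0.0246), as did Cpt1a by the value above. Medians of these lists lay between -0.33 for the oxidase subunits and 0.52 for the futile cycles, beside -0.02 for all genes.

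Lineage markers gave small counts. Of 3 tested brown lineage markers Epsti1 rose by 0.48 (adjusted p = 0.0275), and of 6 tested beige markers Klhl13 fell by 0.46 (adjusted p = 0.024), with diet averaged over genotypes by edgeR. In the transgene comparisons edgeR called 0 genes of either list.

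Of 11 tested paralogs of Ucp1, Cidea, Dio2, Pdk4 and Elovl3, 0 rose and 2 fell with diet averaged over genotypes, by edgeR. The falls of Cox8a and Cox7a2 are counted with the oxidase subunits above. Ucp2, which is present in many cell types including immune cells, lay at 211 to 642 CPM, and Ucp3, the muscle paralog, at 20.3 to 59.8 CPM, and neither was called by edgeR in any comparison. Cidec, the white fat lipid droplet paralog of Cidea, was at 2444 to 3843 CPM, and Cideb had 9 reads in all. Dio1 had 3 reads in all, and Dio3, which inactivates thyroid hormone, lay at 0.192 to 2.86 CPM. Pdk2 was the paralog of Pdk4 that fell, by 0.62 with diet averaged over genotypes (adjusted p = 0.00836) and by 0.69 in transgenic tissue (adjusted p = 0.0395), while Pdk1 and Pdk3 had -0.50 (adjusted p = 0.0539) and -0.10 (adjusted p = 0.629). Elovl6, a lipogenic elongase, fell by 1.28 with diet (adjusted p = 0.0368), whereas Elovl5 had -0.18 (adjusted p = 0.141). Ebf1 and Ebf3 had -0.13 and 0.14 (adjusted p = 0.265 and 0.44), beside the fall of 0.38 in Ebf2, and whether these paralogs differ from Ebf2 was not tested. Ppargc1b had 0.64 for the transgene averaged over diets (adjusted p = 0.141), and Mecom, the relative of Prdm16, had 0.27 (adjusted p = 0.448).

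Per kilobase of the principal transcript, the median level over the 12 libraries was highest for Cox8b, at 123 CPM per kb, followed by Cidea at 36.4, Pdk4 at 28.8, Ucp1 at 16.6 and Ebf2 at 5.77 CPM per kb. Ppargc1a had 1.05, Prdm16 0.722, Elovl3 0.715, Dio2 0.308 and Cox7a1 0.244 CPM per kb. In the library highest in Ucp1, Ucp1 reached 138 CPM per kb and Cox8b 395. Overlap with genes on the opposite strand covered 6.12% of the exon bases of Ebf2 and at most 1.72% of those of the other members.

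Genes most like each member in pattern were taken by the correlation of log2 CPM over the 12 libraries, which share depth and, for the variable members, the same low libraries, so that the coefficients are descriptions only. Nearest to Ucp1 were H2bc21 (r = 0.957), Rfk and Firre, and nearest to Cidea were Apoo, a mitochondrial inner membrane protein, Otop1 and Pank1 (r = 0.948, 0.947 and 0.93). Cox8b was most like Ntrk3, Cyc1, a subunit of respiratory complex III, and Idh3g, of the citric acid cycle (r = 0.961, 0.958 and 0.957). Elovl3 and Ppargc1a shared Hadhb, of mitochondrial beta-oxidation, at r = 0.926 each. Dio2 was nearest to Sucla2, Lrrc15 and Pank1, with r of 0.885 to 0.893. Pdk4 was nearest to Cntfr, Mospd3 and Ptms, Ebf2 to Supt3, Dnajc30 and Dalrd3, and Prdm16 to Cend1, Vwa8 and Oxnad1.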

How the data were processed

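RNA of 12 libraries was measured. The authors deposited whole-number read counts per gene for each library, not normalized, and HISAT2 2.2.0, HTSeq 2.0 and DESeq2 1.32.0 are named per the submitters' processing notes. Neither gene annotation nor strandedness of counting is given in the sources used here. The authors also deposited DESeq2 tables for 4 comparisons, which per the file headers hold a mean normalized count (a signal value), a log2 fold change, a Wald score and p-values per gene, and are quoted only where named. The 5 summary rows per library, 16.8% to 21% of reads, stayed out of library sizes and tests.

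Counts were fitted in R 4.3.3 with edgeR 4.0.16: filterByExpr (minimum count 10, minimum total 15), TMM scaling, and a quasi-likelihood F test in 1 model of the 4 group means (8 residual degrees of freedom). P-values were Benjamini-Hochberg adjusted over all 16550 genes and called below 0.05, for 7 comparisons. The standard error is the log2 change divided by the square root of F. CPM are counts divided by the library's total in M gene counts, without TMM. Log2 CPM, used for spread and likeness, have TMM scaling and a prior count of 2. Ratios of reads have exact 95% intervals, which hold no error beyond counting. The script was tested on simulated data. No pair of libraries agreed within sampling noise (the smallest chi-square divided by its degrees of freedom was 20.6).

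The members and gene lists were chosen with earlier results of these data known. All 10 members are named. From each list, up to 3 genes called with diet averaged over genotypes are named by smallest p, and paralogs always may be. Genes named otherwise are marked in the text, and some genes that the rule names are not reported here. The 3 genes with the highest Pearson correlation are given as most like a member. Alternatives were other scaling (upper quartile, library totals), no filter, a replicate block, DESeq2 1.42.0, limma-voom 3.58.1, only the libraries compared, each library left out, and the muscle-rich or epithelium-rich libraries left out.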

Additional observations from a re-analysis of the deposited data

How the results depend on the processing

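The number of members called with diet in wild-type tissue was 1 and became 0 under upper-quartile factors, under library totals only, with the libraries of the comparison only, without both muscle-rich libraries and without both epithelium-rich libraries, and it was 0 to 0 when single libraries were left out. It stayed at 1, Ebf2, with no filter, with the replicate block, with DESeq2 and with limma-voom. For the transgene on high-fat diet the number went from 0 to 1 (Pdk4, adjusted p = 0.0311) with no filter. For the transgene averaged over diets it went from 0 to 1 (Pdk4) with no filter (adjusted p = 0.00186) and with DESeq2 (adjusted p = 0.02). Pdk4's adjusted p lay between 0.00186 and 0.478 over its 21 alternatives there. The causes were not tested. No called direction reversed.

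Over all genes, the number called with diet in wild-type tissue was 188, against 851 with DESeq2, 699 with limma-voom and 99 with the replicate block, and it ranged from 0 to 269 when single libraries were left out. It was 2 and 13 without wild-type control libraries 1 and 2, and 9, 0 and 17 without wild-type high-fat libraries 1 to 3. In transgenic tissue the number was 1445, against 543 without transgenic high-fat library 3, and it was also below the main number by over 1.5 times without transgenic high-fat library 1, transgenic control library 1 or transgenic control library 2. For the transgene on control diet it was 6 and ranged from 0 to 269, and averaged over diets it was 0 and ranged from 0 to 227. Same-numbered libraries did not deviate together (correlations of -0.111 to 0.265, above 0.1 in 4 of 18 pairs), so the numbers were not taken as pairs, and the replicate block changed no member's call. DESeq2 gave an adjusted p to 1 tested member, Pdk4, for the transgene on high-fat diet. Counts were low for Cox7a1, at 0 to 17 reads per library, and the low values of Ucp1 and Dio2 rest on 1 to 8 reads in the lowest libraries. Why Cox7a1 had so few reads was not tested.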
